A study of Mus musculus with 12 samples.

Results

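Adult haemoglobin RNA was followed in RNASeq of T cells from mouse spleen through the alpha-globin genes Hba-a1 and Hba-a2 and the beta-globin genes Hbb-bs and Hbb-bt. These 4 genes were the rows of the count table whose identifiers carry those symbols in the GRCm38 annotation, out of 49315 gene identifiers, and 1 further gene of the list of 5 was not analysed here. WT mice and miR-214-/- mice, which lack the miR-214 gene, received either sham infusion of the vehicle or angiotensin II (Ang II), a peptide hormone that raises blood pressure, at 490 ng/kg per day. Infusion ran for 14 days from osmotic minipumps in male mice that were 12 weeks old. T cells were then isolated from the spleen. For transferred and cultured T cells the study's methods name negative selection, which removes other cells and leaves T cells untouched. Its RNASeq section names no selection method. The groups WT sham, WT Ang II, miR-214-/- sham and miR-214-/- Ang II held 3 mice each, with 1 library per mouse. The study's methods give backcrossing of the miR-214-/- line to C57BL/6N only for its transfer experiments. Libraries were made from polyadenylated RNA, so mature miR-214 was outside the assay, and Mir214 had 0 counts in each of the 12 libraries, which allows up to 3 counts per library and checks no label.

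Haemoglobin carries oxygen in red cells as a tetramer of alpha and beta chains, each holding a haem group. In the mouse the alpha genes sit in 1 cluster on chromosome 11 and the beta genes in another on chromosome 7, and red-cell precursors switch both clusters on together under the factors GATA1, KLF1 and their partners. Globin RNA goes on building up late in maturation and persists in the reticulocyte, the young red cell that has lost its nucleus. T cells are not known as a source of these chains, whereas the mouse spleen makes red cells throughout life and more of them under stress.

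Total counts per library were between 21126874 and 29605988. Markers of T cells (10 genes, among them Cd3e, Cd4 and Cd8a) summed to between 2862 and 4806 CPM (counts per 1000000 of the library total, after TMM scaling) in the 12 libraries, so the labelled cell type was present in each. Markers of other cells were present too, and their values are given beside the globins further on. In these bulk samples more cells of a type and more RNA per cell cannot be told apart.

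Hba-a1 (ENSMUSG00000069919) lies on the plus strand at chr11:32283511-32284465 and Hba-a2 (ENSMUSG00000069917) on the same strand at chr11:32296489-32297298. Hbb-bs (ENSMUSG00000052305) lies on the minus strand at chr7:103826534-103828096 and Hbb-bt (ENSMUSG00000073940) at chr7:103812524-103813996. Within each pair the copies are so alike that reads can be hard to place. Of the windows of 150 bases (1 read length) in the annotated transcripts of Hba-a2, 73.1% occur letter for letter in Hba-a1, and 57.0% of those of Hba-a1 occur in Hba-a2. The shared part was 45.6% for Hbb-bs and 50.7% for Hbb-bt. Reads were sequenced in pairs, and either mate can place a pair. These single-read shares may therefore overstate the part of pairs without a unique place, which was not scored. Since the authors counted only reads with a unique place in the genome, the levels of the copies within a pair are uncertain and partly set by which stretches differ. Levels of alpha against beta genes are uncertain too, since the shared part differed between the pairs.

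The bases just upstream of the start sites are shown because the 4 genes moved together and because such start-site sequences carry known globin control motifs. Each line gives the 120 bases before the RefSeq start (GRCm38.p6), written 5′ to 3′ on the gene's strand. The gene spans above are from the GENCODE annotation, which can start further upstream. The Hba-a1 and Hbb-bs windows therefore lie wholly inside those spans. The Hbb-bt window lies partly inside its span, and the Hba-a2 window overlaps its span by a few bases. Capitals mark 4 motifs on either strand. These are the letters GATA, the core bound by GATA factors, then the letters CACCC, the box bound by KLF1, as well as the CCAAT box and the TATA box form ATATAA.
Hba-a1, plus strand, chr11:32283552-32283671: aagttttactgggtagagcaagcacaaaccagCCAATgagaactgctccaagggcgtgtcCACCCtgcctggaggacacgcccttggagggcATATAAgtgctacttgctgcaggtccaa
Hba-a2, plus strand, chr11:32296372-32296491: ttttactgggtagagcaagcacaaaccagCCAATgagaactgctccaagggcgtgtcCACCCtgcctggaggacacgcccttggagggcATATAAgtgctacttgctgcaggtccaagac
Hbb-bs, minus strand, chr7:103827929-103828048: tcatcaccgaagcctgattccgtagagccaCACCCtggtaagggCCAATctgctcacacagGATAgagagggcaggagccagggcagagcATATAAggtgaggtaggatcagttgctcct
Hbb-bt, minus strand, chr7:103813924-103814043: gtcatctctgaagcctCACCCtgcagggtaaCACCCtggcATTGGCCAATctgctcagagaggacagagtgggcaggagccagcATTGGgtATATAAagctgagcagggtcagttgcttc
The Hba-a1 line recurs at all 120 positions in the Hba-a2 sequence, in a stretch that starts a few bases before the Hba-a2 line, whereas the best match of the Hbb-bs line within the Hbb-bt sequence, without gaps, was at 89 of 120 positions (74.2%). Each of the 4 windows holds a CACCC box, a CCAAT box and ATATAA. In the alpha pair the CCAAT box comes before the CACCC box, and in Hbb-bs it comes after, while ATATAA is nearest the start in all 4. Hbb-bt has 2 CACCC sites and 3 CCAAT sites, and Hbb-bs alone has a GATA core. No letter belonged to more than 1 site. Among 32851 RefSeq windows of the same length, CACCC was found in 31.7%, CCAAT in 21.3%, GATA in 29.5% and ATATAA in 4.47%, so the TATA box form was the rarest of these motifs.

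Globin RNA was high in 2 of the 12 libraries, both from Ang II mice and 1 from each genotype. The 4 genes summed to 4751 CPM in WT Ang II replicate 1 and to 4038 CPM in miR-214-/- Ang II replicate 2. These libraries held 69.6% of the globin counts of the series. WT Ang II replicate 2 stood between at 1263 CPM, and the other 9 libraries lay between 235 and 453 CPM, within a range of 1.93-fold. From the lowest to the highest library the sum spanned 20.2-fold.

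In WT sham the sum was 449.8, 255 and 418 CPM for replicates 1 to 3, against 4751, 1263 and 449.8 CPM in WT Ang II. For the miR-214-/- mice it was 235, 275 and 267 CPM after sham, against 255, 4038 and 453 CPM after Ang II. Thus WT Ang II replicate 3 had no more globin RNA than WT sham replicate 1, and miR-214-/- Ang II replicate 1 fell inside the range of its sham group.

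**Figure D1:**
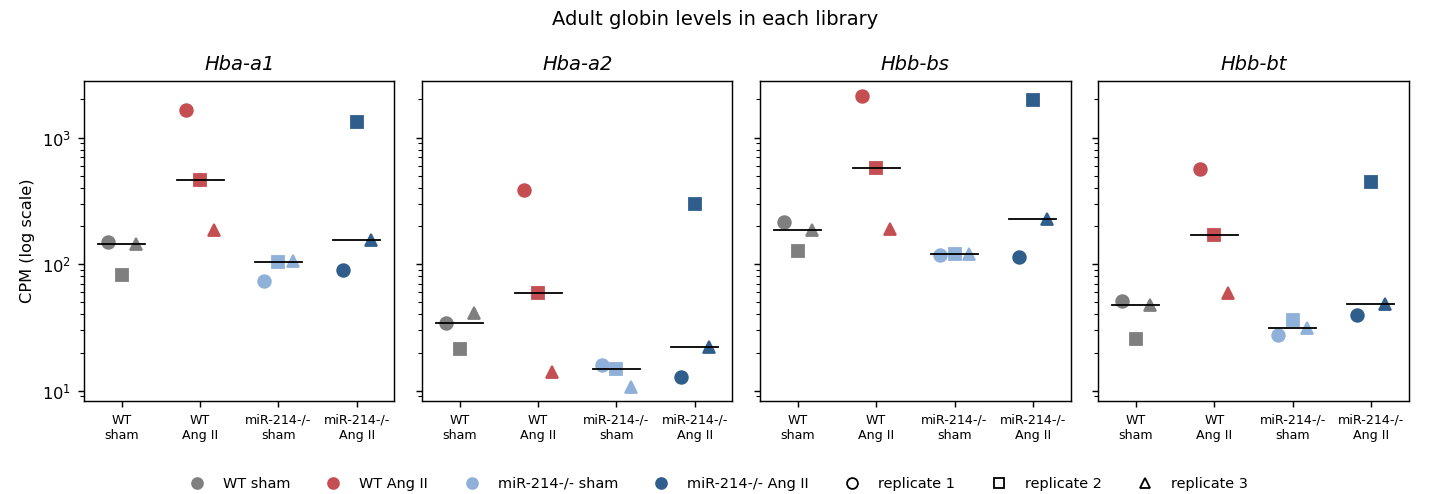
Level of each adult globin gene in the 12 libraries, in CPM on a log axis, with a point for each mouse (symbols mark replicates 1 to 3) and a line at the group median. In every panel WT Ang II replicate 1 and miR-214-/- Ang II replicate 2 stand highest, and no sham library exceeds 214 CPM.

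Among the alpha genes, Hba-a1 had the higher level by unique reads. Hba-a1 was at 150.3, 82.2 and 143 CPM in WT sham and at 1659.7, 464 and 187 CPM in WT Ang II, in the order of replicates 1 to 3. It was at 74.1, 103 and 105 CPM in miR-214-/- sham and at 89.5, 1324 and 155 CPM in miR-214-/- Ang II. The groups did not overlap in WT but did in miR-214-/-, where replicate 1 of Ang II lay below 2 of the 3 sham libraries. Over 16770 genes, 40.1% did not overlap in WT.

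Hba-a2, which codes for the same kind of chain, was at 34.3, 21.3 and 41.4 CPM in WT sham and at 384, 58.7 and 14.0 CPM in WT Ang II. For the miR-214-/- mice it was at 15.9, 14.9 and 10.8 CPM after sham and at 12.8, 296 and 22.1 CPM after Ang II. It differed from the other 3 genes in WT Ang II replicate 3, the lowest Hba-a2 value of its genotype. Its levels in the sham groups did not overlap, with each WT library above each miR-214-/- library. The sham groups did not overlap for 10.2% of 16770 genes.

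The beta gene Hbb-bs had the highest level of the 4 by unique reads. It was at 214, 126 and 187 CPM in WT sham and at 2145, 572 and 189.5 CPM in WT Ang II. It was at 117, 120.5 and 119.6 CPM in miR-214-/- sham and at 113, 1976 and 228 CPM in miR-214-/- Ang II. WT Ang II replicate 3 was within the range of WT sham, so the groups overlapped in WT as in miR-214-/-. The WT sham libraries lay above the miR-214-/- sham libraries, beside 10.2% of 16770 genes that did not overlap there.

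The second beta gene, Hbb-bt, was at 51.2, 25.5 and 47.1 CPM in WT sham and at 562, 169 and 59.0 CPM in WT Ang II. It was at 27.8, 36.2 and 31.3 CPM in miR-214-/- sham and at 39.9, 442 and 48.0 CPM in miR-214-/- Ang II. It was the only one of the 4 whose Ang II and sham libraries did not overlap in either genotype. In both, the lowest Ang II library exceeded the highest sham library by little. Over 16770 genes, 40.1% did not overlap in WT and 18.9% in miR-214-/-, and the share in both was not counted.

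Set per kilobase of merged exon in the GENCODE annotation, the order of levels was Hbb-bs, Hba-a1, Hbb-bt and Hba-a2 in each of the 12 libraries. The mean in WT sham was 229 ± 58.3 CPM per kilobase for Hbb-bs and 154 ± 46.1 for Hba-a1 (SD, n = 3), followed by 58.7 ± 19.6 for Hbb-bt and 48.5 ± 15.3 for Hba-a2. The gap between Hba-a1 and Hbb-bt was at least 1.94-fold in a library, whereas Hbb-bs exceeded Hba-a1 by as little as 1.07-fold and Hbb-bt exceeded Hba-a2 by as little as 1.08-fold. In WT sham the means of Hbb-bt and Hba-a2 differed by less than their SD, and in both Ang II groups the SD of each gene was larger than its mean. Since unique reads set these levels, the order carries the limit given for the copies, both within a pair and between alpha and beta genes.

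Spread between mice was the main feature of the Ang II groups. In WT Ang II the SD of log2 CPM was 1.58 for Hba-a1, 2.39 for Hba-a2, 1.75 for Hbb-bs and 1.63 for Hbb-bt, against a median of 0.18 over 16770 genes. In miR-214-/- Ang II it was between 1.93 for Hbb-bt and 2.42 for Hba-a2, against a median of 0.21. The SD of each globin there was larger than that of at least 99.1% of genes in both Ang II groups. In sham mice it was smaller, between 0.39 and 0.55 in WT and between 0.02 for Hbb-bs and 0.30 for Hba-a2 in miR-214-/-, with medians of 0.17 in both. The SD was larger than that of 77.7% to 86.1% of genes in WT sham and of 2.58% to 70.8% of genes in miR-214-/- sham.

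The first comparison was that of Ang II with sham in WT mice. Fitted levels were higher under Ang II for each of the 4 globins, by a log2 fold change of 2.65 ± 0.75 for Hba-a1 (SE), 2.27 ± 1.04 for Hba-a2, 2.49 ± 0.80 for Hbb-bs and 2.70 ± 0.77 for Hbb-bt. Their median was 2.57, beside -0.02 over the 16012 genes tested. By edgeR's quasi-likelihood test 0 of 4 globins passed an adjusted p under 0.05 with an absolute log2 fold change over 1. The adjusted p from edgeR was 0.0504 for Hba-a1, 0.0509 for Hbb-bt, 0.0701 for Hbb-bs and 0.168 for Hba-a2, and 3 of 4 had an unadjusted p under 0.05, as did 35.6% of all genes. Of all genes tested, 7.3% were called in this comparison. The call was thus a near miss and turned on the method, since DESeq2 called Hba-a1, Hbb-bs and Hbb-bt, with 8.21% of all genes called. It also turned on single mice. Without WT Ang II replicate 3, edgeR called 3 globins, with log2 fold changes up to 3.16, and without replicate 1 it called Hba-a1 alone, at 1.39. Hba-a1 and Hbb-bt did not overlap between the groups, as was so for 40.1% of 16770 genes.

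In miR-214-/- mice the fitted globin levels were higher under Ang II by about as much, with log2 fold changes of 2.48 ± 0.96 for Hba-a1, 3.00 ± 1.14 for Hba-a2, 2.70 ± 0.995 for Hbb-bs and 2.48 ± 0.92 for Hbb-bt. They held places 4, 5, 9 and 10 when the 15937 genes tested were ordered by log2 fold change. By edgeR 0 of 4 passed, with adjusted p between 0.375 and 0.388 and 4 of 4 at an unadjusted p under 0.05, where 12.2% of all genes were. DESeq2 also called 0 of 4. The share of all genes called was 0% by edgeR and 0.391% by DESeq2. A single mouse carried these values. Without miR-214-/- Ang II replicate 2 the log2 fold changes were between 0.33 for Hba-a2 and 0.52 for Hbb-bs. Ratios of group medians were accordingly small, at 1.504 for Hba-a1, 1.48 for Hba-a2, 1.90 for Hbb-bs and 1.53 for Hbb-bt. Only Hbb-bt did not overlap between the groups, beside 18.9% of genes.

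**Figure D2:**
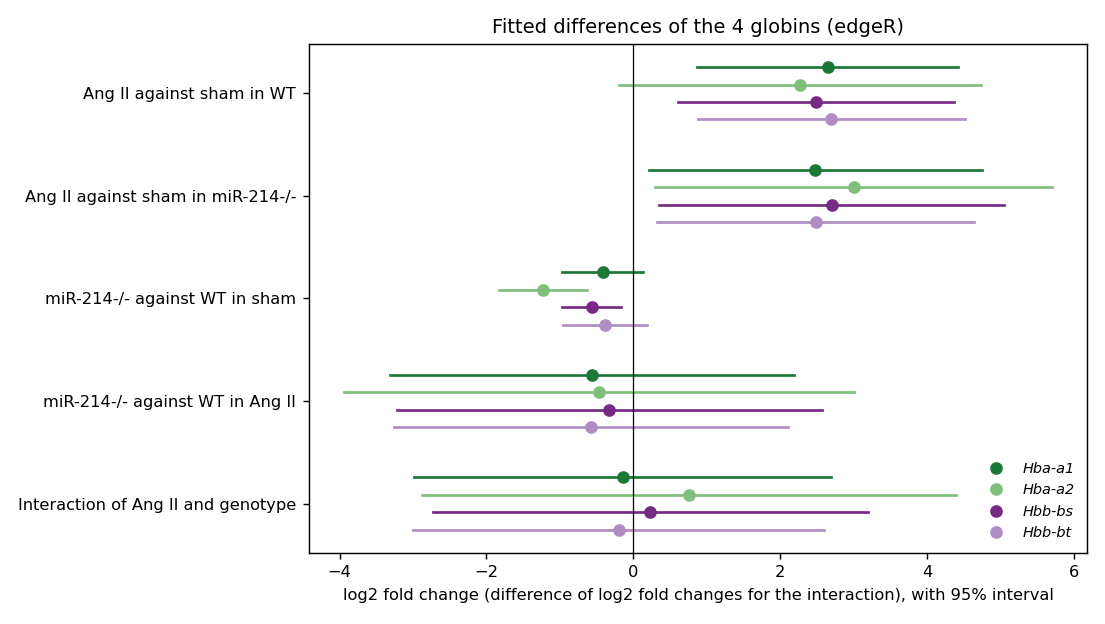
Fitted log2 fold change of each globin in the 5 comparisons, with bars for the 95% interval of edgeR's quasi-likelihood fit (for the interaction, the difference of the log2 fold changes between genotypes). Under Ang II the points lie between 2.27 and 3.00 in both genotypes with wide bars, and the bars of the Ang II genotype comparison and the interaction span 0 for every gene.

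Between genotypes in sham mice each globin had the lower fitted level in miR-214-/- mice. The log2 fold change was -1.23 ± 0.26 for Hba-a2, -0.57 ± 0.17 for Hbb-bs, -0.42 ± 0.24 for Hba-a1 and -0.38 ± 0.25 for Hbb-bt, beside a median of -0.01 over the genes tested. By edgeR 0 of 4 passed, with adjusted p between 0.701 and 0.835 and 2 of 4, Hba-a2 and Hbb-bs, at an unadjusted p under 0.05, where 6.67% of all genes were. The same 2 genes did not overlap between the groups, against 10.2% of genes. The share of genes called was 0.0189% by edgeR and 0.289% by DESeq2. DESeq2 called Hba-a2 with an adjusted p of 9.52e-05. Over its alternatives the adjusted p of Hba-a2 lay between that value and 0.99986. The fold change of Hba-a2 kept its direction when each mouse was left out in turn, between -1.45 and -1.01.

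Under Ang II the genotype comparison gave log2 fold changes of -0.56 ± 1.15 for Hba-a1, -0.47 ± 1.46 for Hba-a2, -0.33 ± 1.22 for Hbb-bs and -0.57 ± 1.12 for Hbb-bt. None of the 4 passed by edgeR or DESeq2, and 0 of 4 had an unadjusted p under 0.05, beside 8.56% of all genes, while 0% of genes were called by edgeR and 0.143% by DESeq2. The 95% intervals were wide, from -3.31 to 2.19 for Hba-a1 and from -3.94 to 3.01 for Hba-a2. Without WT Ang II replicate 1 the sign turned for each gene, to between 0.64 and 1.61. Without miR-214-/- Ang II replicate 1 or replicate 3 it also turned for Hba-a2 and Hbb-bs, to between 0.02 and 0.19.

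The interaction asks if the response to Ang II differed between genotypes. For the globins it was -0.15 ± 1.29 for Hba-a1, 0.76 ± 1.65 for Hba-a2, 0.23 ± 1.35 for Hbb-bs and -0.20 ± 1.27 for Hbb-bt on the log2 scale. By edgeR 0 of 4 passed, 0 of 4 had an unadjusted p under 0.05, beside 14.8% of all genes, and 0.00596% of genes were called, and DESeq2 called 0 of 4 with 3.22% of genes. The 95% interval ran from -2.99 to 2.70 for Hba-a1 and from -2.73 to 3.20 for Hbb-bs, so a difference of several fold in either direction was not detectable with these mice. With both high libraries removed, an alternative chosen after seeing the data, the value was -1.0004 for Hba-a1, -0.998 for Hbb-bt, -0.60 for Hbb-bs and 0.16 for Hba-a2, and again 0 of 4 passed.

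While the levels moved over a 20.2-fold range, the ratio of alpha to beta unique counts stayed in a narrow band. Its size cannot be read as the balance of the RNA. Single-read windows shared with the near copy were 57.0% and 73.1% for the alpha genes, against 45.6% and 50.7% for the beta genes, and read pairs were not scored. The ratio of summed alpha to summed beta counts lay between 0.622 and 0.810 in the 12 libraries, a range of 1.30-fold. It was 0.755 in WT Ang II replicate 1 and 0.670 in miR-214-/- Ang II replicate 2, both within the range of the sham libraries. The mean of the ratio was 0.722 ± 0.059 (SD, n = 3) in WT sham and 0.757 ± 0.052 after Ang II in that genotype. For miR-214-/- it was 0.714 ± 0.080 in sham and 0.661 ± 0.016 after Ang II.

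The ratio of Hbb-bt to Hbb-bs was between 0.202 and 0.353. Its mean was 0.231 ± 0.026 in WT sham and 0.290 ± 0.025 after Ang II in that genotype, and for miR-214-/- it was 0.267 ± 0.032 in sham and 0.263 ± 0.079 after Ang II. In WT the Ang II libraries all lay above the sham libraries, and in miR-214-/- they lay on both sides.

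The ratio of Hba-a2 to Hba-a1 was the least steady, from 0.0749 to 0.289, a range of 3.86-fold. In WT sham it was 0.229, 0.259 and 0.289, and in WT Ang II it was 0.232, 0.127 and 0.0749. For the miR-214-/- mice it was 0.215, 0.145 and 0.103 after sham and 0.143, 0.224 and 0.142 after Ang II. Both libraries with high globin were close to WT sham in this ratio (0.232 and 0.224), and the lowest value was in WT Ang II replicate 3, where globin was not high.

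Differences in the ratios were tested on the log2 scale by exact two-sided permutation over 400 arrangements, with genotype permuted within treatment and treatment within genotype. The smallest of the 6 p-values was 0.16, for the alpha to beta ratio between genotypes, which was -0.11 in miR-214-/- relative to WT. For Hba-a2 to Hba-a1 the difference was -0.41 under Ang II (exact permutation p = 0.29) and -0.23 between genotypes (exact permutation p = 0.51). After adjustment over the 6 tests each p was at or above 0.76, and the design could reach 0.005. As a description over 12 libraries that share depth and preparation, the log2 ratio of Hba-a2 to Hba-a1 had r = -0.70 with log2 CPM of Klf1, which codes for a factor of red-cell precursors, and the log2 ratio of Hbb-bt to Hbb-bs had r = 0.77. With the globin level itself these ratios had r = 0.22 and -0.11. Klf1 was looked at after the ratios had been seen.

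**Figure D3:**
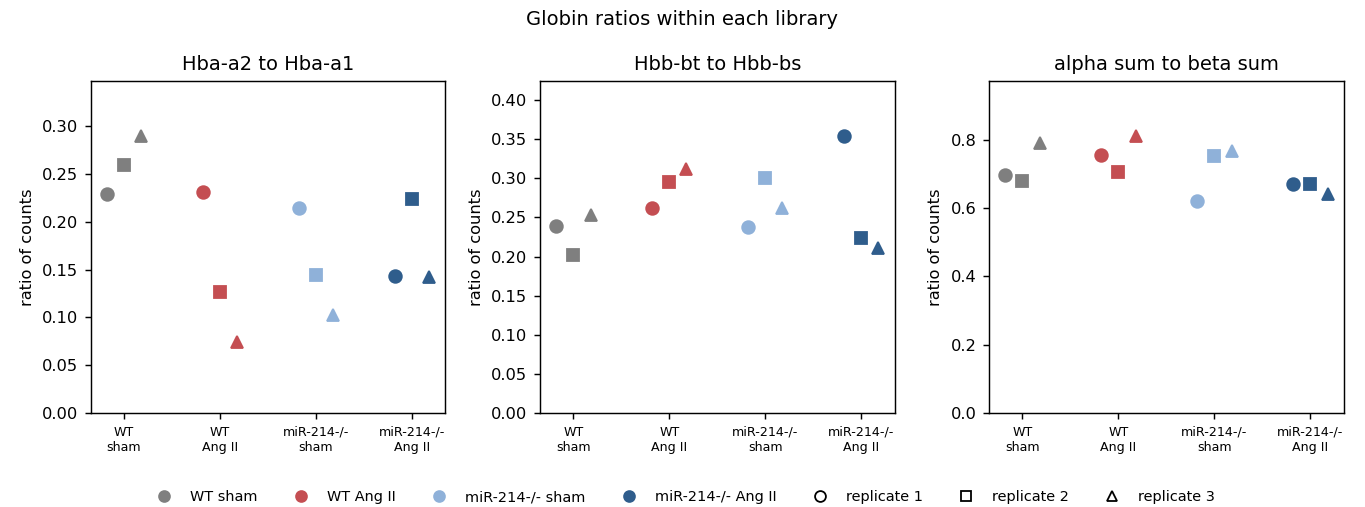
Ratios of counts within each library, with a point for each mouse and the y axis from 0. The alpha to beta ratio stays between 0.622 and 0.810, while Hba-a2 to Hba-a1 runs from 0.0749 to 0.289 and only the range of WT sham is clear of other groups, lying above both miR-214-/- groups.

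The 4 globins followed each other closely over the 12 libraries. Pearson r of log2 CPM was 0.995 for Hba-a1 and Hbb-bt, 0.992 for Hba-a1 and Hbb-bs and 0.987 for the beta pair. It was lower for pairs with Hba-a2, at 0.966 with Hbb-bs, 0.940 with Hba-a1 and 0.938 with Hbb-bt. These values, like those that follow, are descriptions that rest in large part on the high libraries.

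Other globins were scarce. Embryonic Hba-x, Hbb-y and Hbb-bh1 had at most 5 counts in a library, and Hbb-bh2 had 0, which allows up to 3. Hbq1b, a theta-globin gene of the alpha cluster, had 82 counts in WT Ang II replicate 1, 65 in miR-214-/- Ang II replicate 2 and 55 in WT Ang II replicate 2, and between 3 and 14 in each of the other libraries, so it was high where the adult globins were high. The alpha pseudogene Hba-ps4 had between 2 and 19 counts in a library. Cytoglobin (Cygb), which is not a red-cell gene, had a log2 fold change of 0.97 ± 0.40 under Ang II in WT with an adjusted p of 0.129.

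By Pearson r of log2 CPM with the summed globins over 12 libraries, Alas2 came first of 16766 genes at r = 0.998. Alas2 codes for the erythroid form of the enzyme that starts haem synthesis. It was at 25.8, 13.8 and 23.7 CPM in WT sham and at 264, 76.7 and 28.9 CPM in WT Ang II. In miR-214-/- it was at 13.2, 16.7 and 14.1 CPM in sham and at 16.8, 224 and 27.5 CPM under Ang II. The 3 libraries highest in globin came first for Alas2 too, in the same order, and r was 0.992 over the 10 libraries left without the 2 highest. Its log2 fold change was 2.57 ± 0.75 in WT (adjusted p = 0.0551) and 2.61 ± 0.94 in miR-214-/- (adjusted p = 0.361), by edgeR.

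Rsad2 (r = 0.954), an interferon-induced gene, came next. Ube2l6 (0.949), a ubiquitin-conjugating enzyme, and Bpgm (0.940), which makes the red-cell regulator of oxygen release, were also among the first 10. So were Mkrn1 (0.940), March2 (0.939), Hbq1b (0.916) and Fam214b (0.912), beside a median r of 0.01 over all genes. With group means removed r stayed between 0.858 for Fam214b and 0.999 for Alas2. Without the 2 highest libraries it was 0.639 for Bpgm and 0.791 for Rsad2. Bpgm showed the pattern well, with 151 CPM in WT Ang II replicate 1 and 113 CPM in miR-214-/- Ang II replicate 2, and between 21.1 and 36.5 CPM in the others.

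**Figure D4:**
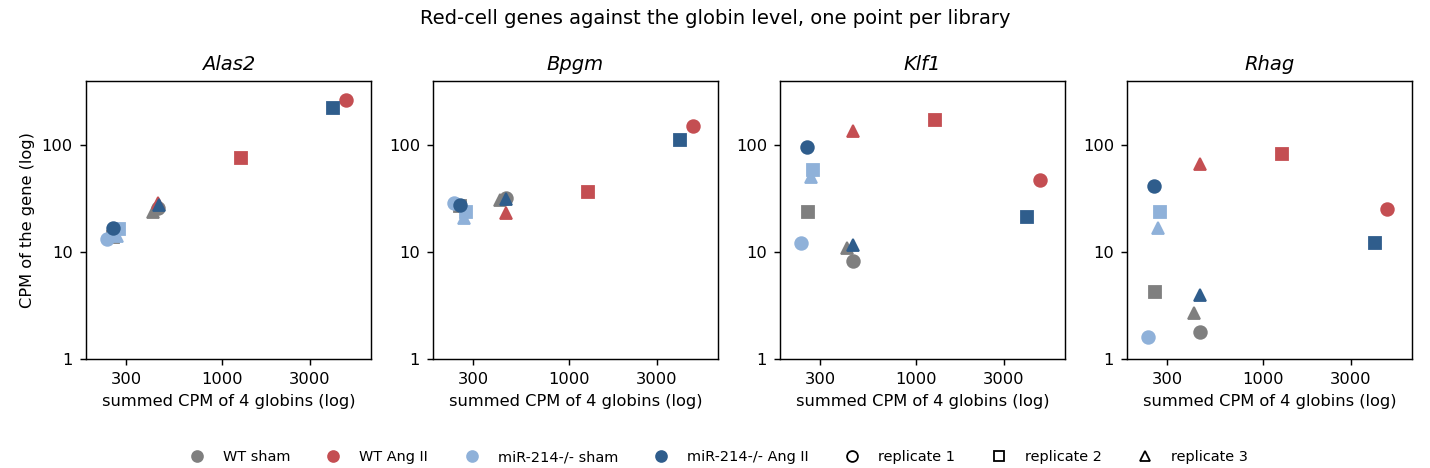
CPM of Alas2, Bpgm, Klf1 and Rhag against the summed CPM of the 4 globins, both on log axes, with a point for each library. Alas2 lies along a line (r = 0.998), Bpgm is high in the 2 high-globin libraries, and Klf1 and Rhag are highest in WT Ang II replicate 2, which holds 1263 CPM of globin.

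Genes that control the globin clusters followed another pattern. Klf1 was at 8.28, 23.7 and 10.97 CPM in WT sham and at 47.0, 172 and 137 CPM in WT Ang II. In miR-214-/- it was at 12.3, 58.6 and 51.1 CPM in sham and at 97.5, 21.3 and 11.6 CPM under Ang II. Its highest libraries were WT Ang II replicates 2 and 3, not the 2 libraries highest in globin, and its r with the globins was 0.11. In the list of 13 regulators, 10 rose in WT by edgeR and 0 fell, with a median log2 fold change of 2.15, where 7.01% of all genes tested were called higher. In miR-214-/- the median was 0.21, with 11 of 13 above 0, and 0 of 13 were called, but neither was any other gene there (0%), as holds for each list that follows. Sox6, a factor of adult globin control, rose by 4.19 ± 0.46 (adjusted p = 0.00307), and the erythropoietin receptor gene Epor by 3.11 ± 0.56 (adjusted p = 0.0137), both by edgeR. Zbtb7a, a repressor of fetal globin, was at 0.04 ± 0.11 and Ldb1, which ties distant enhancers to the clusters, at -0.23 ± 0.09, and neither passed. With group means removed, r with the globins was below 0 for 10 of the 13. Without the 2 libraries highest in globin, it lay between -0.21 for Ldb1 and 0.59 for Zfpm1.

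Haem synthesis genes divided in the same way. Of 9 genes, 5 rose in WT and 0 fell, with a median of 1.75, and the median in miR-214-/- was 0.35. The housekeeping form Alas1 was at 0.59 ± 0.14 with an adjusted p of 0.0295, under the fold threshold, and Ppox was at 0.41 ± 0.16 with an adjusted p of 0.123 (edgeR). With group means removed, 7 of the 9 had r below 0. Without the 2 libraries highest in globin, r lay between 0.01 for Alas1 and 0.99 for Alas2.

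Haem and iron supply genes also rose in WT for 5 of 9, with 0 lower, beside 7.01% of all genes called higher. Steap3, the iron reductase of the transferrin cycle, rose by 3.05 ± 0.64 and Abcb10, a mitochondrial transporter of haem-making cells, by 2.88 ± 0.36 (edgeR adjusted p = 0.0210 and 0.00461). The iron importer gene Slc11a2 was at 0.28 ± 0.11 and the haem exporter gene Flvcr1 at 0.28 ± 0.10, and neither passed. Their r with the globins was between -0.13 for Slc11a2 and 0.71 for the mitochondrial iron importer gene Slc25a37.

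Among red-cell membrane genes 13 of 14 rose in WT, beside 7.01% of all genes called higher. The median of the list was 3.84 in WT and 0.59 in miR-214-/-. Rhag, of the Rh complex, rose by 4.33 ± 0.52 and Dmtn, which bundles actin in the membrane skeleton, by 4.31 ± 0.45 (edgeR adjusted p = 0.00403 and 0.00256). Gypc rose by 1.01 ± 0.23, and Epb41, which T cells also express, was at 0.19 ± 0.15 without passing. Rhag was at 1.79, 4.24 and 2.68 CPM in WT sham and at 25.2, 82.8 and 66.4 CPM in WT Ang II. Its WT Ang II libraries were all above its WT sham libraries, beside 40.1% of 16770 genes that did not overlap there. The library highest in globin, replicate 1, was the lowest of WT Ang II for Rhag. In miR-214-/- the groups overlapped, with Rhag at 1.62, 23.6 and 16.8 CPM in sham and at 41.7, 12.3 and 4.01 CPM under Ang II. The median r of the list with the globins was 0.43, and with group means removed -0.07. Without the 2 libraries highest in globin, r lay between 0.07 for Epb41 and 0.58 for Tmod1.

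Over the 12 libraries red-cell maturation genes split between the patterns. Of 8, 5 rose in WT, beside 7.01% of all genes called higher. Trim10 was at 3.88 ± 0.44 and Tspo2 at 3.49 ± 0.41 (edgeR adjusted p = 0.00324 and 0.00379). Ube2o, whose product clears ribosomes from reticulocytes, was at 0.58 ± 0.22 and the mitophagy gene Bnip3l at 0.24 ± 0.09, and neither passed. Yet 3 of the 8 had r over 0.9 with the globins, namely Ube2l6, Ube2o (0.912) and Bnip3l (0.903), while Tspo2 had 0.38 and the carbonic anhydrase gene Car1 had -0.11. Trim10 lay between, at r = 0.70. Without the 2 libraries highest in globin the gap was narrower. There r was 0.77 for Ube2l6, 0.76 for Ube2o and 0.63 for Bnip3l, against 0.54 for Trim10, 0.27 for Tspo2 and 0.22 for Car1.

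In the list of genes that protect haemoglobin or its cell from oxidation, 2 of 7 rose in WT, beside 7.01% of all genes called higher. Prdx2, a peroxiredoxin of red cells, rose by 2.25 ± 0.33 and Gpx1, glutathione peroxidase, by 1.43 ± 0.09 (edgeR adjusted p = 0.00733 and 0.000788). Cyb5r3, which returns methaemoglobin to its working state, was at 0.45 ± 0.09 and catalase (Cat) at 0.22 ± 0.13. Their r with the globins ran from 0.27 for Prdx2 over 0.73 for Gpx1 and 0.85 for Cat to 0.94 for Bpgm. Without the 2 highest libraries Cat was at 0.30.

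Of the genes that clear free haemoglobin and haem, 5 of 6 were tested and 1 rose in WT, where 7.01% of all genes were called higher. The gene that rose was haptoglobin (Hp), at 3.02 ± 0.44 with an edgeR adjusted p of 0.00733, which neutrophil precursors also make. Lrp1, a haem scavenger receptor, was at 1.09 ± 0.53, Slc40a1, the iron exporter ferroportin, at 0.59 ± 0.50 and haem oxygenase Hmox1 at 0.54 ± 0.60, and none of the 3 passed.

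**Figure D5:**
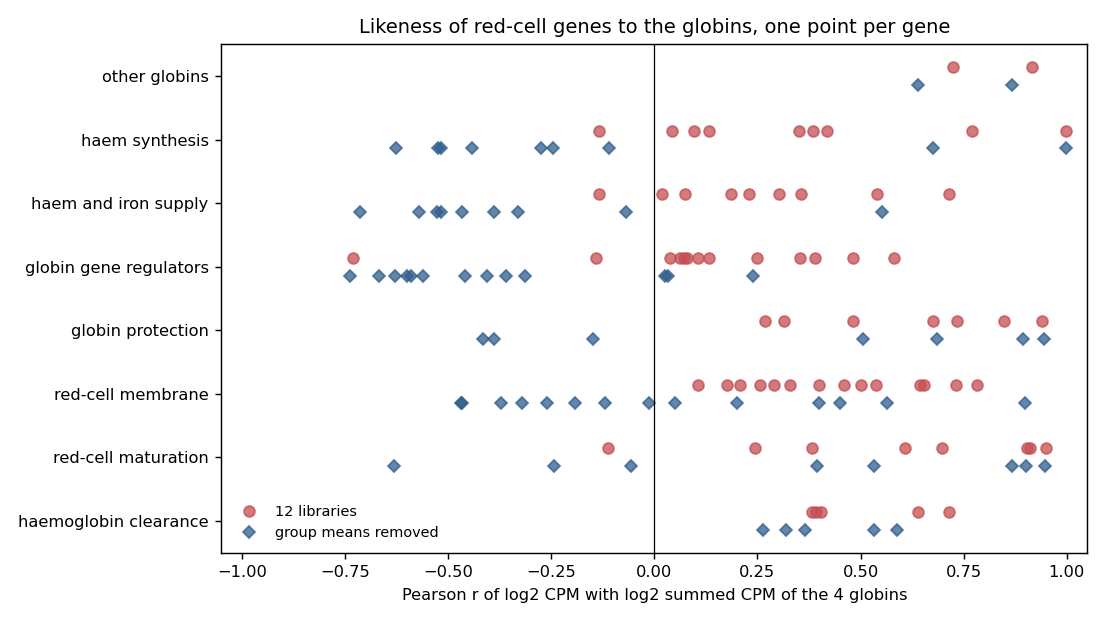
Pearson r of each listed gene with the summed globins on the log2 CPM scale, over 12 libraries (circles) and with group means removed (diamonds), by list. Alas2 stands at 0.998 among haem synthesis genes, and most regulators shift below 0 once group means are removed.

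Of the other cell types looked at, neutrophils had markers that were highest in the same 2 libraries as globin. Neutrophil markers (7 genes, among them Ngp, Camp and S100a8) summed to 2748 CPM in WT Ang II replicate 1 and 2828 CPM in miR-214-/- Ang II replicate 2, against 121 to 966 CPM in the others. Of these markers 7 of 7 were called in WT. There 7.01% of all genes tested were called higher, the share to set beside each count called in this paragraph. Markers of red-cell precursors other than the globins (14 genes) summed to between 1340 and 2155 CPM in WT Ang II and between 208 and 1000.1 CPM in miR-214-/- Ang II, against 101 to 175 CPM in WT sham and 105 to 589.5 CPM in miR-214-/- sham, with 13 of 14 called in WT. Early granulocyte markers (5 of 5 called in WT) summed to between 380 and 672 CPM in WT Ang II and between 237 and 703 CPM in miR-214-/- Ang II. In sham they were at 49.5 to 102 CPM in WT and 130 to 296 CPM in miR-214-/-. WT Ang II replicate 1 was at 654 CPM and miR-214-/- Ang II replicate 2 at 237 CPM, the lowest of its group. Basophil and mast cell markers (4 of 5 called) were at 390 CPM in WT Ang II replicate 1, the highest of the series, but at 114 CPM in miR-214-/- Ang II replicate 2, again the lowest of its group. Red-cell precursor markers in the 2 libraries were at 1340 CPM, the lowest of WT Ang II, and at 822 CPM.

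Macrophage markers (0 of 7 called in WT, where 7.3% of all genes were called) were highest in WT Ang II replicate 1 at 1071 CPM. B cell markers (0 of 5 called) were highest in miR-214-/- Ang II replicate 2 at 357 CPM and in WT sham replicate 1 at 272 CPM. Megakaryocyte markers (1 of 6 called) lay between 105 and 154 CPM throughout, and plasma cell markers (0 of 3 called) between 65.3 and 1564 CPM with the highest value in WT Ang II replicate 3, and at 384 and 215 CPM in the 2 libraries highest in globin. T cell markers were at 3383 and 4370 CPM in the 2 libraries highest in globin, within the range of the rest. In WT they were lower under Ang II than in sham, with sums of 2862 to 3383 CPM against 4238 to 4806 CPM. All 10 had a log2 fold change below 0, with a median of -0.48. An edgeR adjusted p under 0.05 was found for 8 of 10, and for 3009 of the 16012 genes tested. The fold threshold was passed by 0 of 10. In miR-214-/-, where 0% of all genes were called, neutrophil markers had a median log2 fold change of 1.54, with 7 of 7 above 0. Their sums were 452, 121 and 688 CPM after sham and 572, 2828 and 253 CPM under Ang II, for replicates 1 to 3. B cell markers (5 of 5 above 0) had a median of 1.24, early granulocyte markers (5 of 5) 1.08 and red-cell precursor markers (14 of 14) 0.56. Macrophage markers (2 of 7) were at -0.17, plasma cell markers (1 of 3) at -0.27 and T cell markers (3 of 10) at -0.03. The part of these cells in the globin values was not tested.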

How the data were processed

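RNASeq of splenic T cells was analysed in 12 libraries. The authors trimmed reads, mapped them to GRCm38 with STAR and counted unique exon reads per gene with featureCounts (Subread 1.5.2), and the deposited values are raw counts. Of 49315 identifiers, 345 (0.0705% of counts) matched no annotated gene but were kept. The library totals of 21126874 to 29605988 counts set the counting precision.

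In a check for copies, no library repeated another of its group (0 of 12 pairs). R 4.3.3 was used with edgeR 4.0.16 (filterByExpr, TMM, quasi-likelihood test, Benjamini-Hochberg adjustment over all genes tested). Called genes had an adjusted p under 0.05 together with a log2 fold change beyond 1 in size, a condition left out of the interaction. DESeq2 1.42.0 was an alternative. CPM used TMM scaling, log2 CPM a prior count of 2, and ratios 0.5 added counts. Named genes were the globins, per list the 2 highest and 2 lowest in WT, and the 10 most like the globins. Others were chosen after their values were seen. The code was tested on simulated data. Members and lists were chosen with earlier results of these data known. Some listed or most alike genes, and a ratio, are not reported here.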

Additional observations from a re-analysis of the deposited data

How the results depend on the processing

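With 3 mice a group and globin high in single mice, the number of mice limited precision more than depth, since each globin had at least 301 counts in a library. In WT the number of globins called, 0 in the reported fit, was 3 with DESeq2 and without a filter, 2 with library totals alone, with at least 10 counts in every library and with the adjusted-deviance fit, and 0 to 3 with a mouse left out. In sham DESeq2 called 1 globin. Log2 fold changes under Ang II kept their sign in WT and in miR-214-/- under each of 68 alternative values per comparison, and the cause of changed calls was not tested.

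With a mouse left out, miR-214-/- against WT in Ang II ranged from -2.65 to 0.69 for Hba-a1, from -3.13 to 1.61 for Hba-a2, from -2.51 to 1.03 for Hbb-bs and from -2.58 to 0.64 for Hbb-bt. The interaction ranged from -2.25 to 1.10 for Hba-a1, from -1.92 to 2.82 for Hba-a2, from -1.96 to 1.58 for Hbb-bs and from -2.22 to 1.01 for Hbb-bt, and without both high libraries (added later) it was -1.0004 for Hba-a1, -0.998 for Hbb-bt, -0.60 for Hbb-bs and 0.16 for Hba-a2. The ratio of Hbb-bt to Hbb-bs between genotypes ranged from -0.104 to 0.0828 and alpha to beta under Ang II from -0.0670 to 0.0144. The globin log2 fold changes in sham kept their sign.

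Over all genes, 1169 were called in WT, 3009 by adjusted p alone, and 564 to 1338 with a mouse left out. In miR-214-/-, 0 became 51 with DESeq2, 3 without a filter and 0 to 1 with a mouse left out. In sham, 3 became 45 with DESeq2, 9 without a filter, 5 with the robust fit, 0 with the single fit over 12 libraries and 0 to 30 with a mouse left out. Under Ang II, 0 became 21 with DESeq2 and 0 to 1 with a mouse left out. For the interaction, 1 became 444 with DESeq2, 0 to 919 with a mouse left out and 0 without both high libraries.

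With a replicate block, 0 globins were called in each comparison and the sham genotype comparison had 0 genes called. Same-numbered libraries correlated between -0.56 and 0.20 in their deviations, so the numbers were not taken as pairs.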
